A study of Mus musculus with 11 samples.

Results

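Glul, Slc1a2, Rhbg, Axin2, Nkd1, Lgr5, Tbx3 and Lect2 are 8 genes known as targets of Wnt/β-catenin signaling in the hepatocytes around the central vein, and they were followed here through normal mouse liver development. They were chosen by name from the 27962 gene names on the array. No measured value served as a criterion, but earlier results of these data were known when they were chosen. The 8 genes were represented by 13 of the 41174 probes that were not controls. All 8 were among the 16702 genes that passed the filter on dim probes and were tested.

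In adult liver, Wnt ligands from endothelial cells of the central vein stabilize β-catenin in neighboring hepatocytes, where it binds TCF/LEF factors on target genes. The resulting pericentral program includes glutamine synthesis, ammonium uptake and several cytochromes P450, whereas the urea cycle and gluconeogenesis prevail around the portal vein. Axin2, Nkd1 and Lgr5 are themselves regulators of Wnt signaling and are targets of the pathway in many tissues, while Glul, Slc1a2 and Rhbg mark the glutamine-synthesizing cells of the liver.

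RNA of normal mouse livers was hybridized to 11 two-colour Agilent 4x44k arrays, described in the labels as biological replicates. E14.5, E18.5 and P56 have 3 arrays each and P5 has 2, replicates 2 and 3. The labels give the embryonic stages as days 14 and 18 and the study's text as E14.5 and E18.5. The labels give no strain, and the study's methods name C57BL/6 for the embryos from which liver cells were isolated and purified by E-cadherin. Developing or adult liver RNA was labeled with Cy5, and commercial RNA of normal adult mouse liver was the Cy3 reference on every array, with no dye swap. Each value below is a log2 ratio of liver over that reference, so 0 is the level of the reference, and a difference between stages is a difference of mean log2 ratios.

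The labels name mouse liver as the source but give hepatoblasts at E14.5, immature hepatocytes at E18.5 and hepatocytes at P5 and P56 as the cell type, and the protocol mentions both whole livers and isolated cells. The mean log2 ratio of 12 erythroid markers lay between 3.27 and 3.40 on the E14.5 arrays and between 3.30 and 3.45 on the E18.5 arrays. It was 2.49 and 3.12 on the P5 arrays and lay between -0.20 and 0.03 on the P56 arrays, so RNA of red blood cell precursors was present well above the adult level before P56. In such mixed RNA, fewer cells of a type and less RNA per cell cannot be told apart. Probes well above background in Cy5 numbered 20628 to 24163 on 9 of the arrays but 15739 and 18908 on replicates 2 and 3 of P56. Pearson's r between replicate arrays was taken across the probes that passed the filter. It ranged from 0.986 to 0.989 within E14.5, from 0.964 to 0.982 within E18.5 and from 0.824 to 0.933 within P56. For the pair of P5 it was 0.893. The files show 4 scans, with E14.5 and replicate 1 of E18.5 in the first, the other arrays of E18.5 in the next, replicate 2 of P5 alone, and replicate 3 of P5 with P56 in the last. P5 and E18.5 share no scan, nor does P56 with E18.5 or E14.5, so a scan effect cannot be told apart from stage in these comparisons. With so few arrays a stage, the precision is limited.

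The probes are shown where several for the same gene were compared, since their values differed. The first 30 of their 60 bases are given 5′ to 3′ in lower case, as deposited with the arrays, with mm7 coordinates of the whole probe. Both probes of Glul and the first pair of Slc1a2 lie on the plus strand, and the last probe of Slc1a2 lies on the minus strand, opposite to the gene.
Glul A_52_P101279, chr1:153870358-153870417: gtaactgccaggcagcgcttataaatcaac
Glul A_51_P441798, chr1:153869393-153869452: gctggtttcccctttagaaataacagctct
Slc1a2 A_52_P168496, chr2:102628336-102628395: aaatgaccaagacgcagtccatttacgacg
Slc1a2 A_51_P477875, chr2:102628431-102628490: gatgagtgcaaggtacctttcccattcctg
Slc1a2 A_52_P311194, chr2:102595131-102595190: actctgcctttgttatagacttgaagctag

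Upstream sequences were available for 5 of the 8 genes (Glul, Slc1a2, Axin2, Nkd1 and Lect2) and were searched on both strands for CTTTGAA, with CTTTGAT as another form of the TCF/LEF core motif, and for CTTTGTA, with CTTTGTT as its other form. The 250 bases before the RefSeq start of Slc1a2 and of Lect2 each held ATCAAAG, the reverse complement of CTTTGAT, and those of Glul, Axin2 and Nkd1 held none of these letters. Of all 32851 upstream windows of this length, 14.8% held at least 1 match. The search was chosen after the windows had been read, and a match is a description of the letters only. Both windows are given 5′ to 3′ on the strand of the gene from RefSeq, assembly GRCm38.p6, with the match in capitals. It begins 207 bases before the start for Slc1a2 and 32 bases before it for Lect2.
Slc1a2, chr2:102706188-102706437, plus strand: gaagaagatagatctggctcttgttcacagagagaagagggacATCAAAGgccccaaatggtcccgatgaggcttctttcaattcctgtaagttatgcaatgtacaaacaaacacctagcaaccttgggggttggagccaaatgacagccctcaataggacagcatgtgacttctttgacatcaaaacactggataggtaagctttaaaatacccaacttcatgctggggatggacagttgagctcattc
Lect2, chr13:56548539-56548788, minus strand: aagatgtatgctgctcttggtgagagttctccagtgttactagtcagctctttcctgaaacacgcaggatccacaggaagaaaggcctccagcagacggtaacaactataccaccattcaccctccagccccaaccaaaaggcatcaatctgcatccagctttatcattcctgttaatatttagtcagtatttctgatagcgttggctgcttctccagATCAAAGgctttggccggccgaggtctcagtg

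The 8 genes did not follow a common course between E14.5 and P56. Glul rose before birth on its brightest probe, Lect2 between E18.5 and P5, and Slc1a2 after P5. Rhbg, Axin2 and Lgr5 fell between E14.5 and E18.5, and at P56 all 8 genes were higher than at E18.5, although the differences of Glul, Nkd1 and Tbx3 turned slightly negative when arrays were centred on their median in place of loess. By limma with Benjamini-Hochberg adjustment over all 16702 genes and a threshold of 0.05, 1 member was higher and 3 were lower in E18.5 relative to E14.5, where 24.6% of all genes were higher and 22.8% lower. From E18.5 to P5, 3 members were higher and none was lower, against 7.32% and 6.4% of all genes. From P5 to P56, 3 were higher and none lower, against 20.9% and 24.7%. From E18.5 to P56, 8 of 8 were higher, against 31.2% of all genes, and from E14.5 to P56, 5 were higher and none lower, against 36.1% and 34.8%. Counted in either direction, 47.3%, 13.7%, 45.6%, 64.8% and 70.9% of all genes passed in these comparisons, in this order. At an unadjusted p under 0.05, limma and the methods' t-test also found 0 members lower in these comparisons, other than the earliest. The 5 comparisons share arrays and are not independent of each other.

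**Figure D1:**
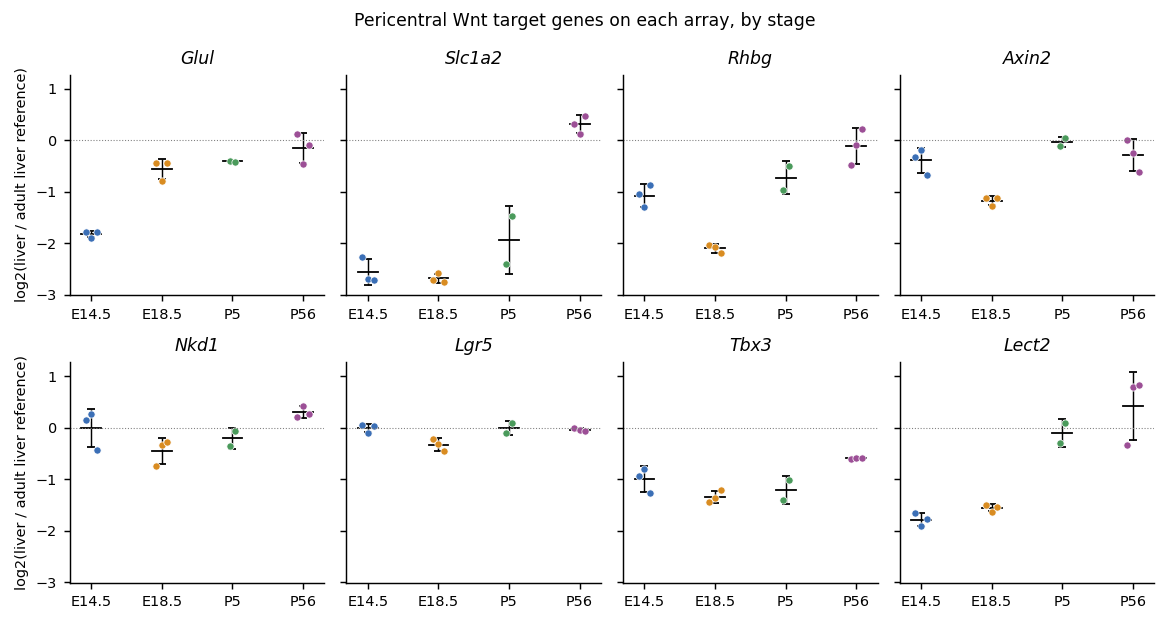
Log2 ratio of liver over the adult liver reference for the probe that stands for each gene, on each of the 11 arrays, by stage. Points are arrays, horizontal bars are means and error bars are 1 SD (3 arrays a stage, 2 at P5), and the dotted line at 0 is the reference. Glul climbs before E18.5, and Slc1a2 stays between -2.74 and -1.46 until P5 and is 0.13 to 0.48 at P56. All members but Glul and Lect2 have their lowest mean at E18.5. The fall from E14.5 was called for Rhbg, Axin2 and Lgr5 and not for Slc1a2, Nkd1 and Tbx3.

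Glul encodes glutamine synthetase, which fixes ammonia into glutamine in the hepatocytes next to the central vein. The log2 ratio of Glul was -1.78, -1.89 and -1.78 on the E14.5 arrays, -0.44, -0.78 and -0.45 on the E18.5 arrays, -0.40 and -0.41 on the P5 arrays, and 0.12, -0.46 and -0.10 on the P56 arrays. The arrays of E14.5 lay below all others, whereas those of P56 overlapped with both E18.5 and P5. The mean ratio was 28.3% of the reference at E14.5 and 68.1% at E18.5. Glul was 2.40-fold higher at E18.5 compared with E14.5, with a log2 difference of 1.26 ± 0.143 (SE, limma adjusted p = 2.06e-05), and it held this direction and call under every alternative run, where it ranged from 0.75 to 1.38. Between E18.5 and P5 the difference was 0.15, with a 95% interval from -0.20 to 0.50 (limma adjusted p = 0.584), and between P5 and P56 it was 0.26, from -0.09 to 0.61 (limma adjusted p = 0.201). P56 was higher than E18.5 by 0.41 ± 0.143 (limma adjusted p = 0.0241), a call that was lost without replicate 2 of E18.5 (adjusted p = 0.108), without replicate 1 of P56 (0.0964), without replicate 3 of P56 (0.0683), with only these stages in the fit (0.0534), with scan as a random block (0.061), with scaling between arrays (0.414) and by the methods' t-test (0.158).

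The other probe of Glul, which lies 965 bases upstream on the same strand, gave a different course. It gave log2 ratios of -2.08, -2.40 and -2.41 on the E14.5 arrays, -1.94, -2.12 and -2.10 on the E18.5 arrays, -2.16 and -1.24 on the P5 arrays, and -1.12, -1.09 and -1.19 on the P56 arrays. E18.5 exceeded E14.5 by 0.24 ± 0.187 on this probe (limma adjusted p = 0.326), and P56 exceeded E18.5 by 0.92 ± 0.187 (limma adjusted p = 0.00107). Both probes were well above background on all 11 arrays in both channels, and both rose from E14.5 to P56, by 1.68 on the brighter probe and by 1.16 on the other. The stage at which Glul rose differed between its probes, and the mean over both gave 0.75 for E18.5 over E14.5 (limma adjusted p = 0.000601).

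Slc1a2 encodes the glutamate transporter GLT-1, which in liver is found in the same pericentral cells as glutamine synthetase. Its brightest probe gave log2 ratios of -2.26, -2.70 and -2.72 on the E14.5 arrays, -2.71, -2.58 and -2.74 on the E18.5 arrays, -2.40 and -1.46 on the P5 arrays, and 0.33, 0.13 and 0.48 on the P56 arrays. The arrays of P56 lay above all others by a wide margin, while E14.5 and E18.5 overlapped. Slc1a2 was 7.96-fold higher at P56 than at E18.5, with a log2 difference of 2.99 ± 0.207 (SE, limma adjusted p = 2.22e-07), and 4.73-fold higher at P56 than at P5 (2.24 ± 0.231, limma adjusted p = 1.35e-05). The call against P5 was lost by the methods' t-test (adjusted p = 0.0807). Slc1a2 ranked 112 from the largest rise among 16702 genes between E18.5 and P56. The E18.5 and E14.5 means differed by -0.12, with a 95% interval from -0.57 to 0.33 (limma adjusted p = 0.674). P5 exceeded E18.5 by 0.75 ± 0.231 without passing the threshold (limma adjusted p = 0.0513). The pair of P5 arrays lay far apart, and without replicate 2 of P5 the difference was 1.22 (limma adjusted p = 0.0015).

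The other probes of Slc1a2 were compared with the brightest. The probe whose start lies 95 bases away on the same strand rose from a mean of -0.93 at E18.5 to 0.30 at P56, a difference of 1.24 ± 0.184 (limma adjusted p = 0.000102), less than the brightest probe in size but with the same order of stages. In Cy5 this probe passed the background test on 1 of 3 arrays of E14.5 and on all later arrays. The probe on the opposite strand was well above background on 3 of 11 arrays in Cy5 and on none in Cy3, and its ratios stayed between -0.16 and 0.18. A separate array entry, 2900019G14Rik, which RefSeq lists as a synonym of Slc1a2, had stage means of -3.87, -3.93, -3.05 and -0.04, and was 3.88 higher at P56 than at E18.5 on the log2 scale (limma adjusted p = 3.67e-07).

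**Figure D2:**
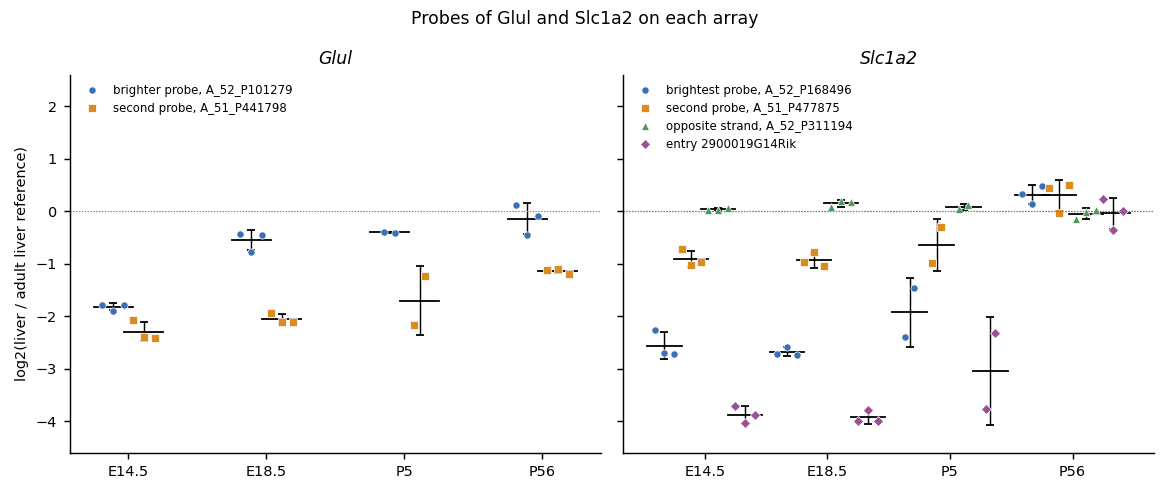
Log2 ratio of liver over reference on each array for the probes of Glul (left) and Slc1a2 (right), by stage, with the mean and 1 SD. The probes of Glul part at E18.5, with means of -0.55 and -2.05, and the plus-strand probes of Slc1a2 and entry 2900019G14Rik all reach their highest mean at P56.

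Rhbg encodes an ammonium transporter of the Rh glycoprotein family. For Rhbg, the log2 ratio was -1.05, -1.30 and -0.87 on the E14.5 arrays, -2.02, -2.06 and -2.19 on the E18.5 arrays, -0.96 and -0.50 on the P5 arrays, and -0.47, -0.08 and 0.23 on the P56 arrays. The arrays of E18.5 lay below all others, and E14.5 overlapped with P5. Rhbg was 2.03-fold lower at E18.5 compared with E14.5, with a log2 difference of -1.02 ± 0.178 (SE, limma adjusted p = 0.000577), and 2.57-fold higher at P5 than at E18.5 (1.36 ± 0.199, limma adjusted p = 0.00117). With scaling between arrays the latter difference was 0.67 and was not called (limma adjusted p = 0.145). The methods' t-test did not call it either (adjusted p = 0.111). At P56 Rhbg stood at 92.8% of the reference, 3.96-fold above E18.5 (1.98 ± 0.178, limma adjusted p = 1.76e-06) and 1.95-fold above E14.5 (0.96 ± 0.178, limma adjusted p = 0.000429). With arrays centred on their median in place of loess, the difference from E14.5 was 0.089 and was not called (limma adjusted p = 0.672). P56 exceeded P5 by 0.62 ± 0.199 (limma adjusted p = 0.0239), a call that was lost without replicate 2 of P5 (0.40, limma adjusted p = 0.246) or replicate 3 of P56 (0.45, limma adjusted p = 0.0865), in the authors' table (0.0781), with only these stages in the fit (0.0937), by the methods' t-test (0.256) and with arrays centred on their median, where it was -0.28. Within the last scan, where only replicate 3 stands for P5, the difference was 0.40, and with scan as a fixed block the call was lost (limma adjusted p = 0.274).

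Axin2, a scaffold of the complex that degrades β-catenin and a feedback inhibitor of the pathway, had the same low point at E18.5. Axin2 had log2 ratios of -0.33, -0.18 and -0.67 on the E14.5 arrays, -1.11, -1.27 and -1.12 on the E18.5 arrays, -0.10 and 0.04 on the P5 arrays, and -0.00090, -0.24 and -0.62 on the P56 arrays. The arrays of E18.5 lay below all others, and the P56 arrays overlapped with E14.5 and P5. Axin2 was 1.72-fold lower at E18.5 compared with E14.5 (-0.78 ± 0.159, limma adjusted p = 0.00171), 2.20-fold higher at P5 than at E18.5 (1.14 ± 0.178, limma adjusted p = 0.00177) and 1.84-fold higher at P56 than at E18.5 (0.88 ± 0.159, limma adjusted p = 0.000438). P56 and E14.5 differed by 0.10, with a 95% interval from -0.24 to 0.45 (limma adjusted p = 0.573). In Cy5, Axin2 was well above background on each of the 8 arrays before P56 but on 1 of 3 at P56. With the scanner software's processed signals, which differ in background correction and dye normalization, the fall at E18.5 was -1.64 and the rise at P5 was 2.22, and what made these larger was not tested. With the Cy5 channel alone the fall at E18.5 was -0.51 and the difference from E18.5 to P56 was 0.34, which did not pass the threshold (limma adjusted p = 0.116). The latter call was also lost with arrays centred on their median (0.38, limma adjusted p = 0.0826). The call of P5 over E18.5 was lost by the methods' t-test (adjusted p = 0.075). P56 was called lower than P5 with Cy5 alone (-0.61, limma adjusted p = 0.0269) and with arrays centred on their median (-0.75, limma adjusted p = 0.00693).

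Nkd1 encodes Naked cuticle 1, which binds Dishevelled and dampens Wnt signaling. The log2 ratio of Nkd1 was 0.15, 0.27 and -0.43 on the E14.5 arrays, -0.75, -0.33 and -0.28 on the E18.5 arrays, -0.35 and -0.06 on the P5 arrays, and 0.20, 0.43 and 0.26 on the P56 arrays. Every stage before P56 overlapped with its neighbor, and the arrays of P56 lay above those of E18.5 and P5. Nkd1 was 1.68-fold higher at P56 than at E18.5 (0.75 ± 0.182, limma adjusted p = 0.00346). The difference of -0.45 ± 0.182 between E18.5 and E14.5 did not pass the threshold (limma adjusted p = 0.0614). Leaving out each array gave -0.66 to -0.30, and only the run without replicate 3 of E14.5 passed the threshold (-0.66, limma adjusted p = 0.00655). Of 27 alternative runs, 5 called this difference. With scan as a fixed block it was -0.75, a value that rests on replicate 1 of E18.5 alone.

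Lgr5, a receptor for R-spondins and a marker of Wnt-responsive cells, stayed closest to the reference among the members under the main processing. On its brightest probe the log2 ratio was 0.05, -0.09 and 0.03 on the E14.5 arrays, -0.22, -0.31 and -0.46 on the E18.5 arrays, -0.09 and 0.09 on the P5 arrays, and -0.0045, -0.05 and -0.06 on the P56 arrays. The arrays of E18.5 lay below all others, and the other stages overlapped. E18.5 differed from E14.5 by -0.32 ± 0.0953 (limma adjusted p = 0.0148) and P56 was higher than E18.5 by 0.29 ± 0.0953 (limma adjusted p = 0.0187). The fall at E18.5 lost its call without replicate 1 of E14.5 (limma adjusted p = 0.0534), without replicate 3 of E18.5 (0.073) and with scan as a block (-0.21, limma adjusted p = 0.221). The rise to P56 also lost its call without replicate 3 of E18.5 (limma adjusted p = 0.0864). With the processed signals these differences were -0.996 and 0.97. The rise was also lost with arrays centred on their median, with scaling between arrays, with scan as a random block and with Cy5 alone. Both calls were lost in the authors' table, where the differences were -0.47 and 0.95. Lgr5 was well above background in Cy5 on 10 of 11 arrays, with 2 of 3 at P56. Another probe lying 11839 bases away was never above background in either channel.

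Tbx3 encodes a T-box transcription factor that is expressed in hepatoblasts and in pericentral hepatocytes. For Tbx3, log2 ratios were -0.93, -0.79 and -1.28 on the E14.5 arrays, -1.44, -1.37 and -1.21 on the E18.5 arrays, -1.40 and -1.01 on the P5 arrays, and -0.61, -0.58 and -0.58 on the P56 arrays. The arrays of P56 lay above all others, and the 3 earlier stages overlapped. Tbx3 was 1.69-fold higher at P56 than at E18.5 (0.76 ± 0.136, limma adjusted p = 0.000439), 1.53-fold higher than at P5 (0.62 ± 0.152, limma adjusted p = 0.0061) and 1.33-fold higher than at E14.5 (0.41 ± 0.136, limma adjusted p = 0.0174). At 66.5% of the reference at P56, it was the member farthest below the reference at that stage. The call against P5 was lost without replicate 2 of P5 (0.43, limma adjusted p = 0.0903), with scan as a fixed block (0.101) and by the methods' t-test (0.109). The call against E14.5 was lost without replicate 3 of E14.5 (0.27, limma adjusted p = 0.0857), with Cy5 alone (0.0709), with scan as a random block (0.0776), by the methods' t-test (0.0678) and with scaling between arrays, where the difference was 0.091 (limma adjusted p = 0.844). The call against E18.5 was also lost with scaling between arrays (0.46, limma adjusted p = 0.296). Neither call, nor that against E18.5 (0.52, limma adjusted p = 0.228), was made in the authors' table. The difference of -0.34 between E18.5 and E14.5 did not pass the threshold (limma adjusted p = 0.0564). A further probe lying 11732 bases away was never above background.

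Lect2 encodes a chemotactic factor secreted by hepatocytes. Log2 ratios of Lect2 were -1.66, -1.92 and -1.77 on the E14.5 arrays, -1.49, -1.63 and -1.54 on the E18.5 arrays, -0.30 and 0.08 on the P5 arrays, and -0.33, 0.79 and 0.82 on the P56 arrays. All 5 postnatal arrays lay above all 6 embryonic arrays, and P5 overlapped with P56. Lect2 was 2.73-fold higher at P5 than at E18.5 (1.45 ± 0.278, limma adjusted p = 0.00603), 3.95-fold higher at P56 than at E18.5 (1.98 ± 0.249, limma adjusted p = 2.59e-05) and 4.63-fold higher at P56 than at E14.5 (2.21 ± 0.249, limma adjusted p = 6.98e-06). The call at P5 was lost without replicate 3 of P5, where the difference was 1.26 (limma adjusted p = 0.0603), in the authors' table (0.0972), with scaling between arrays (0.108) and by the methods' t-test (0.0935). E18.5 and E14.5 differed by 0.23, with a 95% interval from -0.31 to 0.77 (limma adjusted p = 0.487). P56 and P5 differed by 0.53 (limma adjusted p = 0.138). Leaving out each array gave 0.34 to 0.91, and only the run without replicate 1 of P56 was called (0.91, limma adjusted p = 0.000272). With arrays centred on their median this difference was -0.046.

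**Figure D3:**
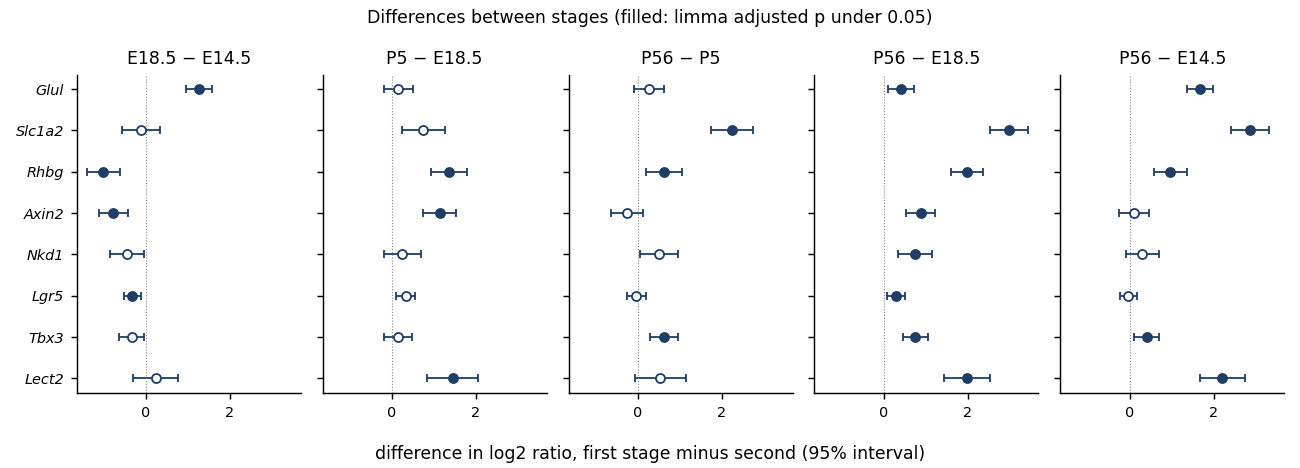
Difference in mean log2 ratio, first stage minus second, with its 95% interval from limma, for each gene in 5 comparisons. Filled points passed an adjusted p of 0.05. All 8 points are filled for P56 minus E18.5, of which Glul, Nkd1 and Tbx3 lose their direction when arrays are centred on their median, and for E18.5 minus E14.5 Glul is filled above 0 and Rhbg, Axin2 and Lgr5 below it.

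Set side by side, the median difference over the 8 genes was -0.33 for E18.5 over E14.5, 0.54 for P5 over E18.5, 0.52 for P56 over P5, 0.82 for P56 over E18.5 and 0.69 for P56 over E14.5. The median over all genes lay between -0.02 and 0.04 in these comparisons. Members whose arrays did not overlap between stages were 2 higher and 3 lower for E18.5 over E14.5, where 30.6% and 31.4% of the 16439 genes with a value on every array were so. For P5 over E18.5 they were 6 higher and 0 lower, against 22.4% and 21.3%, and for P56 over P5 they were 4 and 0, against 28.3% and 32.8%. For P56 over E18.5, 7 members were higher without overlap and Glul was the exception, against 34% of genes higher and 36% lower, and for P56 over E14.5 they were 5 and 0, against 38.7% and 36.8%.

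The size of the P56 differences depended on how the arrays were scaled. With arrays centred on their median log ratio in place of loess, the median of all genes shifted by -0.42 between E18.5 and P56, and only 14.9% of the genes called there were higher. Under that setting 3 members (Slc1a2, Rhbg and Lect2) were called higher at P56 than at E18.5, and Glul, Nkd1 and Tbx3 had differences of -0.034, -0.13 and -0.057. Relative to the shifted median of all genes, the 8 differences between E18.5 and P56 were all positive, the smallest being 0.29 for Nkd1. Taking values relative to that median removes the shift that this setting had shown, and such values were not tested. For P56 over E14.5, Nkd1, Tbx3 and Axin2 were negative relative to the shifted median, at -0.22, -0.10 and -0.016, and the other members were positive. For P56 over P5, Axin2 was the only negative member on this scale, at -0.28. Between P5 and P56, where the median of all genes shifted by -0.47, Slc1a2 was the only member called higher and Axin2 was called lower (-0.75, limma adjusted p = 0.00693). Slc1a2 and Lect2 kept their call in both comparisons with P56 from an embryonic stage under all alternatives, and Rhbg kept its call against E18.5.

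**Figure D4:**
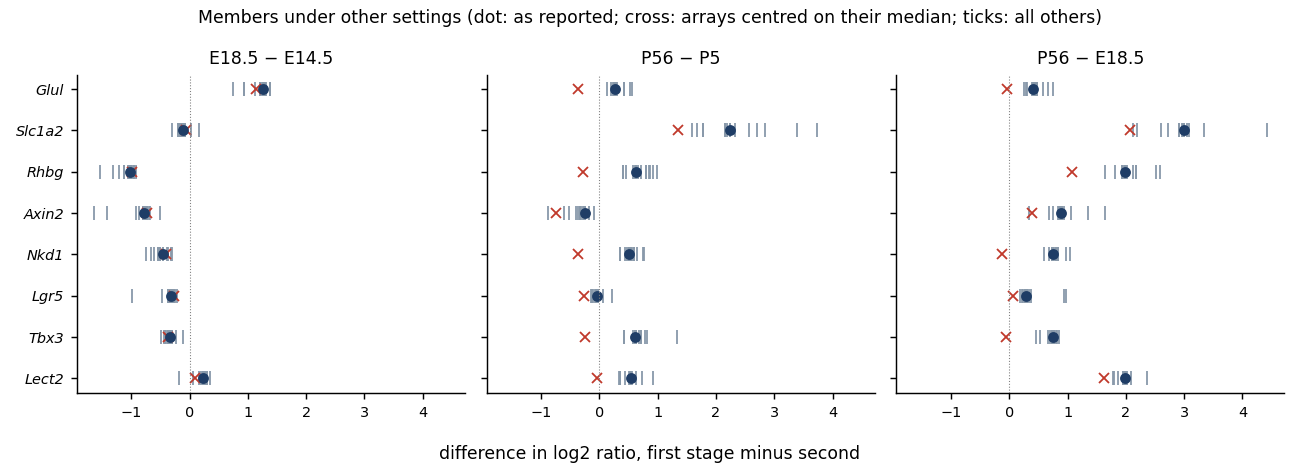
Difference in mean log2 ratio for each gene under other settings, in 3 comparisons. Dots are the values as reported, crosses the values with each array centred on its median, and ticks the values under all other settings and without each array. The crosses of P56 minus P5 and P56 minus E18.5 lie to the left of the dots for every gene, whereas for E18.5 minus E14.5 they lie close to them.

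Other genes of the pericentral program were compared from a list of 16, of which 15 were tested. For E18.5 over E14.5, 9 rose and 1 fell, and for P56 over E14.5, 14 rose and 1 fell, with a median difference of 2.78. With scaling between arrays these counts were 4 and 1, and 10 and 1, and with Cy5 alone 7 rose and 2 fell for E18.5 over E14.5. For P5 over E18.5 the list median was 0.43, but -0.71 with scaling between arrays. For P56 over E18.5, 12 rose and none fell (7 and none with scaling between arrays, 12 and 2 with arrays centred on their median). Cyp2e1, a cytochrome P450 of ethanol and drug metabolism, had stage means of -4.74, -3.15, -1.16 and -1.24 and was higher at E18.5 compared with E14.5 by 1.59 ± 0.232 (limma adjusted p = 0.00016), a call lost with scaling between arrays (0.99, limma adjusted p = 0.261). Cyp1a2, another cytochrome P450, had means of -2.88, -2.72, -2.03 and -1.04, and Oat, ornithine aminotransferase, had means of -1.07, -1.25, -0.95 and 0.18. Neither passed the threshold between E14.5 and E18.5, and both were higher at P56 than at P5, by 0.99 and 1.13, though by 0.23 and 0.54 and not called with arrays centred on their median. The largest rises between E14.5 and P56 were those of Cyp7a1, the rate-limiting enzyme of bile acid synthesis, at 5.66 and of Aldh1a1, a retinal dehydrogenase, at 5.03, and the only fall was that of Slc16a10, an aromatic amino acid transporter, at -0.61.

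Genes of the periportal zone mostly rose before birth. Of 15 tested, 13 rose and none fell for E18.5 over E14.5 by limma, with 8 to 13 higher and none lower under the other scalings run, and 14 were higher at P56 than at E14.5 with a median difference of 2.73 (9 with scaling between arrays). Cps1 and Ass1, enzymes of the urea cycle, rose from -5.69 to -0.67 and from -2.88 to -0.58 between E14.5 and E18.5. Gls2, the liver glutaminase, had stage means of -3.86, -0.52, 0.79 and 0.99. Pck1, which catalyzes a step of gluconeogenesis, rose between E18.5 and P5 from -5.11 to -0.36, and Cyp2f2, a periportal cytochrome P450, had means of -4.96, -3.35, -2.17 and -1.24. Arg1, the arginase of the urea cycle, had the largest rise of the list for P56 over E14.5, at 4.97. For P56 over E18.5, 9 periportal genes rose and 3 fell (5 and 3 with scaling between arrays). For E18.5 over E14.5 the members' median of -0.33 stood beside medians of 0.67 in the other pericentral genes and 1.72 in the periportal genes. For P56 over E18.5 the members' median of 0.82 stood beside 1.57 and 1.17. The differences between the lists were not tested.

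General targets of Wnt signaling, which respond in many tissues, were described from a list of 15, all tested. For E18.5 over E14.5, 3 rose and 7 fell (1 and 6 with scaling between arrays), and for P56 over E14.5, 3 rose and 8 fell (1 and 10 with arrays centred on their median). The 3 that were higher at P56 were Notum, a secreted Wnt deacylase that is entered on the array as 5730593N15Rik (2.30 ± 0.232), Rnf43, a ubiquitin ligase that removes Wnt receptors (1.01 ± 0.144), and Sp5, a transcription factor (0.90 ± 0.201). Of these Notum was called with arrays centred on their median (1.58), and Rnf43 and Sp5 had differences of 0.19 and 0.39 (limma adjusted p = 0.381 and 0.123). Notum had stage means of -1.53, -1.66, -0.95 and 0.77, and Sp5 had means of -1.20, -1.66, -0.94 and -0.30. The largest falls from E14.5 to P56 were those of Apcdd1, a membrane-bound inhibitor of Wnt signaling, at -2.05 and of Ccnd1, cyclin D1, at -1.41. Lef1, a TCF/LEF factor, was high at E18.5 alone, with means of -0.17, 1.39, -0.19 and -0.31. Znrf3, a homolog of Rnf43, had means of 0.15, 0.20, 0.20 and -0.03 and passed the threshold in none of the 5 comparisons.

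Of 24 genes of the Wnt machinery 22 were tested, Rspo3 not among them. For P56 over E14.5, 10 rose and 10 fell, and with each array centred on its median 4 were higher and 11 lower. Wnt2, a ligand of liver endothelial cells, had stage means of -0.21, -0.57, 0.54 and 0.68 and was higher at P5 than at E18.5 by 1.12 ± 0.214 (limma adjusted p = 0.006), a call lost with scaling between arrays (limma adjusted p = 0.0991). Wnt9b, another such ligand, was higher at P56 than at E14.5 by 0.42 ± 0.118, a call lost with arrays centred on their median (0.11). Lgr4, a receptor for R-spondins, had the largest rise between E14.5 and P56, by 1.81, followed by Apc, of the β-catenin degradation complex, by 1.65. Ctnnb1, which encodes β-catenin, was lower at P56, with a difference of -0.95 ± 0.146 from E14.5, as was Tcf7l2, a TCF factor, with -0.57 ± 0.109. The largest falls were those of Csnk1a1, a kinase that phosphorylates β-catenin, and Tcf7l1, entered on the array as Tcf3, at -1.02 each.

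**Figure D5:**
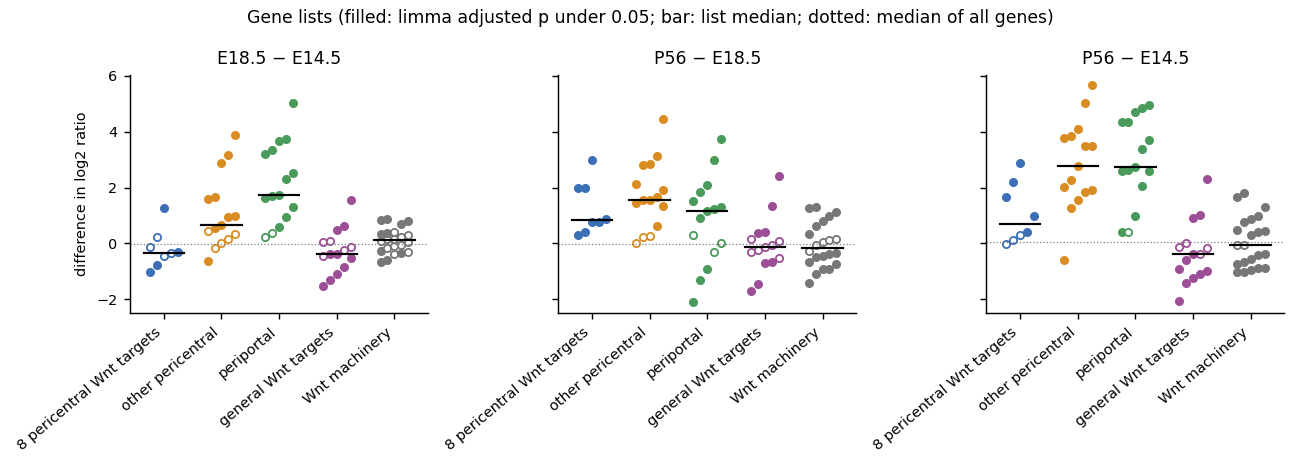
Difference in mean log2 ratio of each tested gene in 5 lists, for E18.5 minus E14.5, P56 minus E18.5 and P56 minus E14.5. Filled points passed an adjusted p of 0.05, bars are list medians and the dotted line is the median of all genes. At E18.5 minus E14.5 the medians are -0.33 for the 8 pericentral Wnt targets, 0.67 for other pericentral genes, 1.72 for periportal genes and -0.38 for general Wnt targets.

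Markers of other cells moved with these comparisons. All 12 erythroid markers were lower at P56 than at each earlier stage, with a median difference of -3.61 from E18.5. Under scaling between arrays 8 of them were called lower against E14.5 and 10 against E18.5. Of 10 macrophage markers, 10 were higher at E18.5 compared with E14.5 with a median of 1.43 (1 of 10, with a median of 0.99, under scaling between arrays), and 7 were lower at P56 than at E18.5. Of 11 endothelial markers, 6 rose and 1 fell for E18.5 over E14.5, and 8 were lower at P56 than at E18.5 (4 under scaling between arrays). Stellate cell markers were mostly lower at P56 than at E14.5, 8 of 10. Of 5 biliary markers tested, 4 were higher at E18.5 compared with E14.5. Of 9 hepatocyte markers tested, 8 were higher at E18.5 compared with E14.5 and 9 at P56 than at E14.5. For P56 over E18.5, 6 hepatocyte markers were higher and 3 lower. Of 6 hepatoblast markers, 3 were higher and none lower at E18.5 compared with E14.5 (none was called under scaling between arrays). At P56, 5 of 6 hepatoblast markers were lower than at E14.5 (1 of 6 under scaling between arrays). Their part in the differences of the 8 genes was not tested.

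The genes whose course was most like that of each member were found by Pearson's r over the 11 arrays among the other 16431 genes with a value on every array, as a description, since the arrays of a stage share most of their variation. Errfi1 was nearest to Glul (r = 0.990), with stage means of -3.86, -0.70, -0.20 and 0.26, followed by Camk2n1 and Bckdha. Slc1a2 was nearest to its own other entry 2900019G14Rik (r = 0.996), followed by Rbks and LOC674035. Eltd1, now named Adgrl4 and known as an endothelial receptor, was nearest to Rhbg (r = 0.986), followed by Fkhl18, now Foxs1, and Ndufa11. For Axin2 the nearest were the entry AW122171 (r = 0.975), Tcf7 (r = 0.948) and Epn2. Tcf7, a TCF/LEF factor and a general Wnt target, was also among the nearest 3 of Lgr5 (r = 0.909), with Nek4 and Wdr40b, now Dcaf12l1. Tcf7 had stage means of -0.12, -0.52, 0.05 and -0.11, and like Axin2 it was lower at E18.5 compared with E14.5 (-0.39, limma adjusted p = 0.00429) and higher at P5 than at E18.5 (0.56, limma adjusted p = 0.00494). Nkd1 was nearest to Col8a1 (r = 0.947), Hs3st3b1 and Haghl, Tbx3 to 1700030E15Rik (r = 0.978), Zfp661 and 2810428I15Rik, now Rex1bd, and Lect2 to Cyp2b9 (r = 0.992), the entry ENSMUST00000045536 and Ppp3cc. Among the 8 genes themselves r ranged from -0.21 between Glul and Lgr5 to 0.94 between Nkd1 and Tbx3.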

How the data were processed

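For 11 arrays the authors deposited scanner output of Feature Extraction 9.5.1.1, with Cy5 and Cy3 intensity, local background and quality marks for every spot and mm7 coordinates for every probe, not normalized across arrays. A gene table from the authors, with log2 ratios after lowess for 28050 genes, served as an alternative only. Pearson's r of its columns with the mean over probes of each gene on the same array was 0.815 to 0.931. The columns for replicate 1 of E14.5 (r = 0.906) and replicate 3 of P5 (r = 0.846) were closer to replicate 2 of their stage than to their own array. The software's log10 ratios in the deposited files were not used.

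Mean spot signals were corrected by local background with normexp and an offset of 50, and loess normalized the log2 ratios array by array, with no step across arrays. Control and outlier spots were left out, and spots of a probe were averaged. Probes entered if every array of some stage had them well above background in Cy5, and no stage lacked more than 1 value. The brightest one stood for its gene. In R 4.3.3, limma 3.58.1 (lmFit, then eBayes) fitted the 11 arrays together, with Benjamini-Hochberg adjustment over 16702 genes. The fit was tested on simulated data. Figures were drawn with matplotlib 3.10.9.

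The 8 genes, the gene lists and the tests were chosen with earlier results of these data known. Named genes are all members with every probe, set names from the other lists, the 2 largest rises and 2 largest falls of each of those lists between E14.5 and P56, and the 3 genes most like each member. Gene names are those of the array. The accessions of all 8 members matched RefSeq symbols of assembly GRCm38.p6, and 9 list genes were found through RefSeq accessions. Alternatives were other background corrections, normalizations, filters and probe choices, the authors' table, blocks, the methods' t-test and each array left out.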

Additional observations from a re-analysis of the deposited data

How the results depend on the processing

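Over the alternatives and an added scaling between arrays, chosen after seeing the data, the number of members called moved by over 1.5 times in 11 cases. For E18.5 against E14.5 it was 2 of 6 members tested when probes had to be above background on all arrays, against 4. For P5 against E18.5 it was 5 with processed signals or no background subtraction, 1 with scaling between arrays and 0 with the methods' t-test, against 3. For P56 against P5 it was 5 with Cy5 alone (Axin2 among them as lower, -0.61, limma adjusted p = 0.0269), 1 with the authors' table, 1 with scan as a fixed block and 0 with the methods' t-test, against 3. The t-test found 3 and 3 at an unadjusted p under 0.05 in these. For P56 against E18.5 it was 3 with median centring and 5 with scaling between arrays, against 8. Leaving out each array gave 3 to 6, 2 to 5, 1 to 4, 7 to 8 and 4 to 5 members called in the 5 comparisons in order, with 5 (P5 against E18.5) and 1 (P56 against P5) without replicate 2 of P5. Directions reversed as follows. For E18.5 against E14.5, Lect2 was -0.19 with Cy5 alone and Slc1a2 was 0.15 in the authors' table. For P5 against E18.5, Tbx3 was -0.0061 with Cy5 alone and -0.18 in the authors' table, and with scaling between arrays Tbx3 was -0.87, Glul -0.27 and Slc1a2 -0.79. For P56 against P5 with median centring, Glul was -0.38, Rhbg -0.28, Nkd1 -0.37, Tbx3 -0.25 and Lect2 -0.046, and Lgr5 was 0.21 in the authors' table. For P56 against E18.5 with median centring, Glul was -0.034, Nkd1 -0.13 and Tbx3 -0.057. For P56 against E14.5, Axin2 was -0.29 with processed signals, -0.34 with median centring, -0.16 with Cy5 alone and -0.017 with scaling between arrays, Nkd1 was -0.55 and Tbx3 -0.43 with median centring, and Lgr5 was 0.018 without background subtraction and 0.48 in the authors' table. Of these, Nkd1 was called lower (limma adjusted p = 0.0343). With each array left out, Slc1a2 ranged from -0.20 to 0.028 (E18.5 against E14.5), Tbx3 from -0.054 to 0.33 (P5 against E18.5), Lgr5 from -0.13 to 0.056 (P56 against P5) and Axin2 from -0.038 to 0.27 (P56 against E14.5). The causes were not tested. Of these reversed differences, Rhbg and Tbx3 (P56 against P5), Glul, Nkd1 and Tbx3 (P56 against E18.5) and Tbx3 (P56 against E14.5) had passed the threshold as reported. With median centring the median of all genes shifted by -0.47 for P56 against P5, -0.42 against E18.5 and -0.33 against E14.5, and 6.84%, 14.9% and 22.9% of the genes called were then higher, against 45.7%, 48.1% and 51.0%. For E18.5 against E14.5 that share was 51.9%, with 41.8% in Cy5 alone and 63.9% in the authors' table. All genes called for P5 against E18.5 numbered 2292, with 1474 by median centring, 389 by scaling between arrays, 292 in the authors' table, 61 by the methods' t-test and 928 to 3765 with each array left out. For P56 against P5 they were 7615, with 5040 in the authors' table, 4995 with these stages alone, 4656 with the scan block, 298 by the t-test and 4741 without replicate 2 of P5, and for E18.5 against E14.5 they were 7908, with 4798 in the authors' table and 3134 by scaling.

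With the replicate number as a block, 4, 3, 3, 8 and 5 members were called, as without it. Deviations from the stage means had r from -0.30 to 0.19 over 15 pairs of arrays with the same number. Such deviations cancel out within a stage, so the 2 arrays of P5 mirror each other. With so few arrays a stage, these values cannot show whether the numbers pair the arrays. Aquantile leaves the log ratios of probes as they are, but it can change which probe is brightest and stands for its gene. With it 7903 genes were called for E18.5 against E14.5, against 7908. Scan as a fixed block could not be fitted for the other 3 comparisons, whose stages share no scan. Within shared scans Glul, Rhbg and Axin2 differed by 1.38, -0.95 and -0.72 between E18.5 (1 array) and E14.5, and Slc1a2 by 1.77 between P56 and P5 (1 array). Dim spots limit Axin2 and Lgr5, and 2 arrays limit P5.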
